A study of Mus musculus with 4 samples.

Results

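The expression of 48 genes of the synaptic vesicle and of the machinery for transmitter release was followed on 4 arrays of mouse ear RNA. The genes were named as a pathway list, and the list was chosen partly on the low ratios of Syt1 and Syt4 on these same arrays, so the values of these genes describe the arrays and test nothing about Syt1 and Syt4. Of the 48 genes, 47 had a probe that could be tested, and Syt5 was matched to none. Of these 47, 36 had a brightest probe well above background in both dyes on all 4 arrays. They stand among 25694 genes and unnamed transcripts tested, of which 18349 were measured as fully.

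Each array compared an extract labelled DEP_ear, in the red dye Cy5, with an extract labelled CON_ear, in the green dye Cy3. The mice were male BALB/c animals 6 to 10 weeks old, and the temporal bone area with the middle ear was harvested from them on day 14. Exposed mice had inhaled diesel exhaust particles (DEPs) for 1 h on each of 5 days, whereas the controls carry the treatment label none. The study used 9 mice, and neither the labels nor the methods say how many stand behind an extract, so every p-value here measures only the spread between the 4 arrays. The labels name the source of each dye but list both treatments under Cy5. Dyes were not exchanged on any array, and dye bias and exposure cannot be told apart. The share of probes detected well above background on an array was 65.4% to 68.9% in Cy5 and 59.2% to 68.0% in Cy3.

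At a synapse, transmitter is packed into vesicles by transporters of the vesicle membrane, and the vesicles are docked and primed at the active zone by large scaffold proteins. Calcium that enters the terminal is sensed by synaptotagmins, and the SNARE proteins of the vesicle (Vamp2) and of the plasma membrane (Snap25, Stx1a) then zip together and fuse both membranes. The membrane is afterwards retrieved by endocytosis. In the ear, synapses occur on nerve fibres and at hair cells, whose ribbon synapse has Otof as its calcium sensor. The machinery with synaptotagmins also serves endocrine cells such as the chromaffin cells of the adrenal medulla.

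Many release genes are kept silent outside neurons by the repressor REST, which binds the RE1 element. RefSeq promoters of assembly GRCm38.p6, 250 bases before to 50 after each start site, were searched on both strands for the letters TTCAGCACC and GGACAG, the left and right parts of RE1. TTCAGCACC was found in 2 of 52 promoters of 38 release genes, those of Syn1 and Unc13a, and in 0.371% of all 32851 promoters. GGACAG was found in 17 of the 52 (32.7%) and in 22.2% of all promoters. Both were found in 1 promoter, that of Unc13a, and in 0.0913% of all. The 2 promoters of release genes that hold TTCAGCACC are shown here, since this part of RE1 is the rarer, with matches to either motif, on either strand, in capitals. They lie on the minus strand at chrX:20920869-20921168 (Syn1, with the first base of the motif at position -232 from the start site) and chr8:71671708-71672007 (Unc13a).
Syn1: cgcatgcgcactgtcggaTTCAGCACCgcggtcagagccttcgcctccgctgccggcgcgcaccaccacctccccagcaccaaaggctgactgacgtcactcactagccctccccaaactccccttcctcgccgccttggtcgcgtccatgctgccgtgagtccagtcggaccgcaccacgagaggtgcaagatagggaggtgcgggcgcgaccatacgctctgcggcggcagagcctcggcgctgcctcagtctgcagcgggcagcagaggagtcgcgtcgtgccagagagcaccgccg
Unc13a: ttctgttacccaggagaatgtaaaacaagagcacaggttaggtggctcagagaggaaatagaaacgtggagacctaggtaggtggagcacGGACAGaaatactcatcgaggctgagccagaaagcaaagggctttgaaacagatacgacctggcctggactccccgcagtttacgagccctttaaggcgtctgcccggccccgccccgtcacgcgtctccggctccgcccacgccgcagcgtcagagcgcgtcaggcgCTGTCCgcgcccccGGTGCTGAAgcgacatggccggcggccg
A match describes letters and not a site in use, and no match says only that the letters are not in this window.

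The release genes had low ratios on 3 of the 4 arrays and ratios near 0 on the fourth. Over the 36 fully measured genes, the median log2 ratio, taken as the Cy5 channel (labelled DEP) over the Cy3 channel (labelled control), was -2.17 on array 1, -1.52 on array 2, -0.62 on array 3 and 0.08 on array 4. This direction, taken from the source names, opposes that of the study, whose list of upregulated genes holds Pclo and Rims2, whose brightest probes had mean ratios below 0 here. Over all 18349 fully measured genes, the corresponding medians lay between -0.01 and 0.08. On array 1, 30 of the 36 genes were past 2-fold lower, against 7.04% of all fully measured genes. The number was 25 on array 2 (4.09%), 11 on array 3 (3.21%) and 1 on array 4 (2.94%).

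Counted by the mean over arrays, 27 of 47 genes were lower by more than 2-fold in the DEP-labelled channel, where 4.37% of all genes tested were. These 27 include 7 genes that were not fully measured, among them Rims2, Syt7 and Unc13a, whose Cy5 signal was not above background on any array. None (0) of the 47 was past 2-fold higher, against 2.37% of all genes. Among fully measured genes, 20 of 36 were past 2-fold lower (2.45% of all such genes) and 0 past 2-fold higher (0.703%). A mean below 0 was found for 32 of the 36 (45.6% of all), 14 were lower on all 4 arrays (10.7%) and 1, Sypl, was higher on all 4 (15.4%). Since the list was chosen partly on this contrast, these shares are a description only. Snap91, with a mean of -1.06, lay just inside the 2-fold limit, and Syp, with -0.98, just outside it.

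These counts leaned on arrays 1 and 2. Without array 1, 10 of the 47 genes were past 2-fold lower, without array 2 the number was 15, and on arrays 3 and 4 alone, a choice made after seeing the data, it was 6. With normexp background correction it was 19 when followed by loess and 9 when each array was centred on its median instead. Read by brightest probes, 0 genes passed 2-fold on every array. On every array 17 of 47 genes were lower, as were 10.9% of all genes tested. Without array 4 the number lower on every remaining array was 37, a count that fewer arrays make easier to reach. Apart from the 10.9%, no share of all genes is given for the settings of this paragraph. Their counts thus describe the release genes only.

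**Figure D1:**
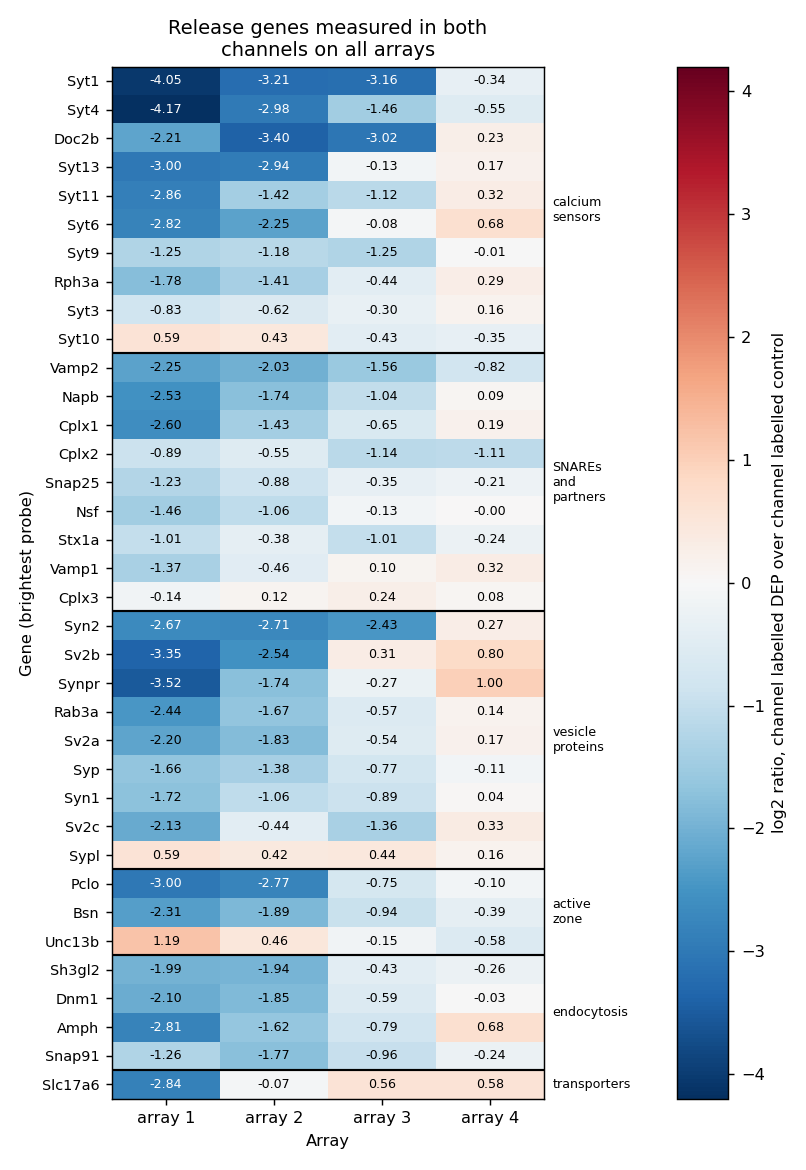
Log2 ratio of Cy5 (labelled DEP) over Cy3 (labelled control) for the 36 fully measured release genes (rows, grouped by role) on each of the 4 arrays (columns), with blue for ratios below 0 and red for ratios above 0. Columns 1 and 2 are mostly blue, with medians of -2.17 and -1.52, and column 4 is mostly pale, with a median of 0.08.

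No single gene passed the test across all probes. Of the 45 genes other than Syt1 and Syt4, 0 had an adjusted p under 0.05 in limma's moderated test, as did 0.0% of all genes, and the adjusted p ranged from 0.108 for Cplx2 to 0.899 for Syt10. At an unadjusted p under 0.05, 15 of the 34 fully measured genes among them were lower and 1, Sypl, was higher, where 6.07% of all fully measured genes were lower and 6.55% higher at that limit. Ordinary least squares without moderation gave 4 of 34 lower at that limit (Snap91, Vamp2, Stx1a and Cplx2) and 1, Sypl, higher, where 5.05% of all fully measured genes were lower and 8.65% higher, and it made 0 adjusted calls. With normexp and median centring, 3 genes had an adjusted p under 0.05 in limma, namely Sypl, with a mean log2 ratio of 0.74, and Rims1 and Rims2, which were not fully measured, but 2988 genes of the whole array were then called, too.

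The calcium sensors include Syt1 and Syt4, on whose low ratios the list was partly chosen, and these had the lowest means of the list. Of 14 genes listed, 10 were fully measured, 9 of these had a mean below 0, 6 were past 2-fold lower, and their median was -1.19. Both chosen genes are among those counted, so these values are a description only. Syt1, the sensor of fast synchronous release, had log2 ratios of -4.05, -3.21, -3.16 and -0.34 on arrays 1 to 4, a mean of -2.69 ± 1.62 (SD, n = 4), or 6.44-fold lower. In Cy5 its normalised signals were 343, 497, 816 and 530, and in Cy3 they were 5662, 4584, 7283 and 668. The Cy3 values of arrays 1 to 3 all lay above every Cy5 value, and the Cy3 value of array 4 lay within the range of Cy5.

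Syt4, a synaptotagmin of dense core and other vesicles, had log2 ratios of -4.17, -2.98, -1.46 and -0.55, a mean of -2.29 ± 1.61 (SD, n = 4). Its Cy3 signals were 1026, 887, 839 and 157, against 56.9, 112, 305 and 107 in Cy5. Array 4 again had the lowest Cy3 signal, and here the Cy5 signal of array 3 was the highest of its dye. As the list was chosen partly on Syt1 and Syt4, neither is given a p.

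Doc2b, a high-affinity calcium sensor, had log2 ratios of -2.21, -3.40, -3.02 and 0.23 (mean -2.10 ± 1.63, SD, n = 4). Syt13, an atypical synaptotagmin, had -3.00, -2.94, -0.13 and 0.17 (mean -1.48 ± 1.73, SD, n = 4). Both were far lower in the channel labelled DEP on arrays 1 and 2, but array 3 went with them for Doc2b and with array 4 for Syt13. Syt6 had -2.82, -2.25, -0.08 and 0.68, the order of Syt13, while Syt11, with -2.86, -1.42, -1.12 and 0.32, lay between these patterns.

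The other sensors differed less. Syt9, a fast sensor in some neurons and in secretory cells, had ratios of -1.25, -1.18, -1.25 and -0.01. Rph3a (rabphilin, a Rab3 effector with calcium-binding domains) had -1.78, -1.41, -0.44 and 0.29, and Syt3 had -0.83, -0.62, -0.30 and 0.16. Syt10 alone among the 10 had a mean above 0, at 0.06, with 0.59 and 0.43 on arrays 1 and 2 and -0.43 and -0.35 on arrays 3 and 4. Its mean turned to -0.12 without array 1 and to -0.06 without array 2.

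The SNARE proteins and the factors that hold them ready or take them apart had smaller ratios, with a median of -0.67. All 9 were fully measured, 8 had a mean below 0, and 3 were past 2-fold lower. Vamp2, the main vesicle SNARE of brain, was lower on every array, at -2.25, -2.03, -1.56 and -0.82 (mean -1.66 ± 0.64, SD, n = 4; 3.17-fold lower, adjusted p = 0.112 in limma). Its Cy3 signals of 6208, 5165, 4595 and 2179 all lay above its Cy5 signals of 1301, 1265, 1563 and 1236. The dyes did not overlap for Vamp2, whereas they did for Syt1.

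Snap25, the plasma membrane SNARE with its paired helices, had ratios of -1.23, -0.88, -0.35 and -0.21 (mean -0.67 ± 0.48, SD, n = 4). Its Cy5 signals were 7070, 6581, 10427 and 8895, and its Cy3 signals were 16571, 12131, 13256 and 10259. The lowest Cy3 signal of Snap25 was below the highest Cy5 signal. Stx1a, its partner in the plasma membrane, had -1.01, -0.38, -1.01 and -0.24, and so was lowest on arrays 1 and 3. Nsf, the ATPase that takes spent SNARE complexes apart, had -1.46, -1.06, -0.13 and -0.00, and its cofactor Napb had -2.53, -1.74, -1.04 and 0.09.

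Complexins clamp and release assembled SNAREs, and the 3 of them differed. Cplx1 followed the common order with -2.60, -1.43, -0.65 and 0.19. Cplx2 was the exception, with -0.89, -0.55, -1.14 and -1.11 (mean -0.92 ± 0.27, SD, n = 4; adjusted p = 0.108 in limma), so that arrays 3 and 4 were its lowest. With normexp and median centring the mean of Cplx2 was -0.33. Its Cy3 signals were 22999, 16865, 33083 and 29675, all above its Cy5 signals of 12447, 11487, 14978 and 13772. Cplx3, known from ribbon synapses of the retina, lay near 0 on every array, between -0.14 and 0.24. Vamp1, the SNARE of spinal and motor synapses, had -1.37, -0.46, 0.10 and 0.32.

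Cplx2 was read by 4 probes, and they did not all follow each other. Its next 2 probes had mean ratios of -1.94 and -1.37 and an adjusted p of 0.0922 each in limma, the smallest on the array, and both passed 2-fold lower on all 4 arrays. The fourth probe, A_51_P485161, had -2.61, -2.22, -1.83 and 0.17, the order common among the release genes. On array 4, then, 3 probes of Cplx2 read between -1.48 and -1.11 and the other probe read above 0.

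Vesicle membrane and vesicle-bound proteins had a median of -1.10. Of 10 genes, 9 were fully measured, 8 had a mean below 0 and 5 were past 2-fold lower. Syn2, a synapsin that tethers vesicles into a reserve pool, had ratios of -2.67, -2.71, -2.43 and 0.27 (mean -1.89 ± 1.44, SD, n = 4). Its Cy3 signals were 4608, 4258, 5360 and 634, and its Cy5 signals 724, 650, 994 and 765. On arrays 1 to 3 Cy3 was far above Cy5, and on array 4 it was below every Cy5 signal. Syn1, the synapsin whose promoter holds TTCAGCACC, had smaller ratios of -1.72, -1.06, -0.89 and 0.04.

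Syp (synaptophysin, an abundant membrane protein of the vesicle) had -1.66, -1.38, -0.77 and -0.11, and Rab3a, the GTPase of docking vesicles, had -2.44, -1.67, -0.57 and 0.14. Synpr (synaptoporin), a relative of Syp in subsets of neurons, had the widest span of the group, from -3.52 on array 1 to 1.00 on array 4. The 3 SV2 glycoproteins were all past 2-fold lower on array 1, at -2.20 for Sv2a, -3.35 for Sv2b and -2.13 for Sv2c. On array 3 they parted, with -0.54 for Sv2a, 0.31 for Sv2b and -1.36 for Sv2c. A further probe of Sv2c was not above background in either dye and is given no fold.

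Sypl, a synaptophysin-like protein found in many tissues outside the nervous system, ran the other way. Its log2 ratios were 0.59, 0.42, 0.44 and 0.16 (mean 0.40 ± 0.18, SD, n = 4; adjusted p = 0.205 in limma), and its other probe averaged 0.37. Its Cy5 signals of 5016, 4351, 4303 and 4555 lay above its Cy3 signals of 3326, 3250, 3178 and 4077. No other fully measured gene of the list was higher on all 4 arrays.

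**Figure D2:**
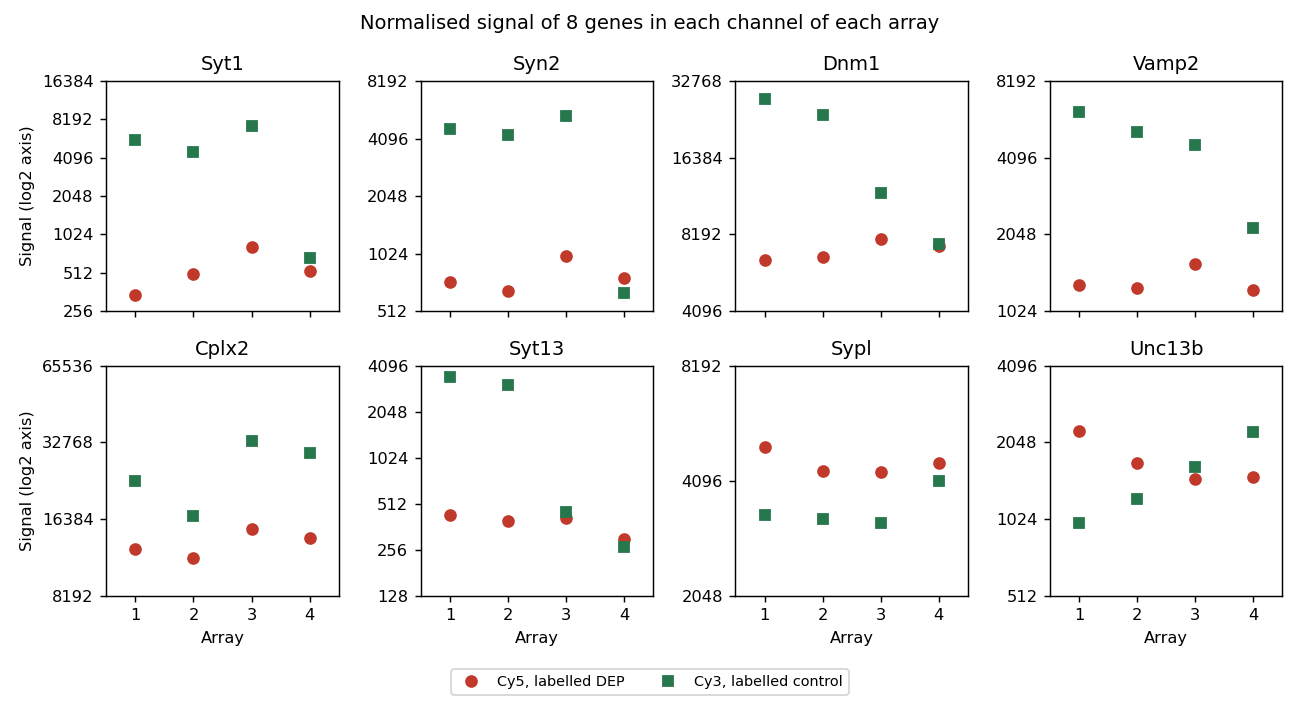
Normalised signal (log2 axis) of 8 release genes in Cy5, labelled DEP (red circles), and in Cy3, labelled control (green squares), on arrays 1 to 4. For Syt1 and Syn2 the Cy3 points drop towards the Cy5 points on array 4, for Dnm1 and Syt13 on arrays 3 and 4, and Vamp2 and Cplx2 keep a gap on every array.

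Of the 8 genes of the active zone, 3 were above background in both dyes throughout, with a median of -1.38. Pclo (piccolo) and Bsn (bassoon), the giant scaffolds that organise the release site, had -3.00, -2.77, -0.75 and -0.10 and -2.31, -1.89, -0.94 and -0.39, respectively. Their brightest probes were lower on every array. Unc13b, a Munc13 priming factor expressed beyond neurons, had 1.19, 0.46, -0.15 and -0.58, so its ratios ran opposite to those of the scaffolds from array to array. Its Cy3 signals of 990, 1232, 1642 and 2249 against 2259, 1691, 1476 and 1503 in Cy5 overlapped.

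The probes of Pclo disagreed. The brightest probe had a mean ratio of -1.66 and another, above background throughout, had -2.11. The probe A_55_P2058143, also above background throughout, had 0.35, -0.09, 0.02 and -0.29, a mean of 0.00. A dim probe of Pclo, detected in Cy3 on 2 arrays and in Cy5 on 0, is given no fold.

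The other genes of the active zone were not above background throughout, and no fold is given for them. Rims1, which links vesicles to calcium channels, was detected on 3 arrays in Cy5 and 2 in Cy3, and Rims3, a short RIM protein, on 3 and 1. Unc13c, the Munc13 form of the cerebellum, was detected on every array in Cy5 but on 3 of 4 in Cy3. For Rims2, Syt7 and Unc13a no array had a detected Cy5 signal (0 of 4), and Cy3 was detected on 2, 2 and 1 arrays.

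Endocytosis was the most even group, with all 4 genes fully measured, lower and past 2-fold, and means from -1.16 to -1.06. Dnm1, the neuronal dynamin that pinches vesicles off the membrane, had ratios of -2.10, -1.85, -0.59 and -0.03. Its Cy5 signals hardly moved, at 6524, 6687, 7864 and 7362, while its Cy3 signals went from 27923 and 24148 to 11867 and 7493. For Dnm1 the highest Cy5 signal was 1.21-fold the lowest, and the highest Cy3 signal was 3.73-fold the lowest. Sh3gl2 (endophilin A1) had -1.99, -1.94, -0.43 and -0.26, Amph (amphiphysin) -2.81, -1.62, -0.79 and 0.68, and Snap91 (AP180, a clathrin adaptor) -1.26, -1.77, -0.96 and -0.24.

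The vesicular transporters tell which transmitter a vesicle carries, and 1 of the 3 was fully measured. Slc32a1, the transporter for GABA and glycine, was detected in Cy5 on all 4 arrays and in Cy3 on 3. In Cy3 it read 8186, 7108, 440 and 37.7, and in Cy5 1098, 275, 329 and 66.4. A dimmer second Slc32a1 probe, above background on 2 arrays in each dye, read 94.8, 96.0, 16.8 and 22.4 in Cy3 and 48.9, 31.2, 18.1 and 29.1 in Cy5. Slc17a7, a vesicular glutamate transporter abundant in the cerebral and cerebellar cortex and likewise detected in Cy3 on 3 arrays, read 315, 296, 32.6 and 41.7 in Cy3. For both genes the Cy3 signal was far higher on arrays 1 and 2 than on arrays 3 and 4.

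Slc17a6, the glutamate transporter of many brainstem and sensory neurons, was low on array 1 alone, with ratios of -2.84, -0.07, 0.56 and 0.58. Here the Cy5 signal differed, at 75.9, 400, 530 and 460, while Cy3 stayed between 308 and 543. The mean of -0.44 turned to 0.36 without array 1. A further 3 genes of the list were measured in part and are given no fold, namely Syt2, the fast sensor of brainstem and neuromuscular synapses, the synapsin Syn3 and the synaptotagmin Syt12.

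Most release genes varied more between arrays in Cy3, labelled control, than in Cy5, which rested on array 4. The SD of a gene's log2 signal over the arrays had a median of 0.73 in Cy3 and 0.31 in Cy5 over the 36 genes, against 0.22 and 0.19 over all fully measured genes. It was wider in Cy3 for 30 of 36 genes (59.8% of all), and for 29 when each channel was scaled on its 75th percentile. Without array 4 it was wider in Cy3 for 19 of 36. The 6 genes with a wider spread in Cy5 were Syt10, Syt11, Snap25, Vamp1, Sv2c and Slc17a6.

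Array 4 had the lowest Cy3 signal for 28 of the 36 genes, as it had for 23.4% of all fully measured genes. The 8 exceptions were Syt10, Vamp1, Sypl, Sv2b, Sv2c, Cplx2, Cplx3 and Unc13b. Relative to each gene's mean, the median log2 Cy3 signal was 0.62, 0.36, -0.13 and -0.96 on arrays 1 to 4, whereas in Cy5 it was -0.19, -0.01, 0.22 and 0.06. In whole tissue, fewer cells of a type and less RNA per cell cannot be told apart.

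**Figure D3:**
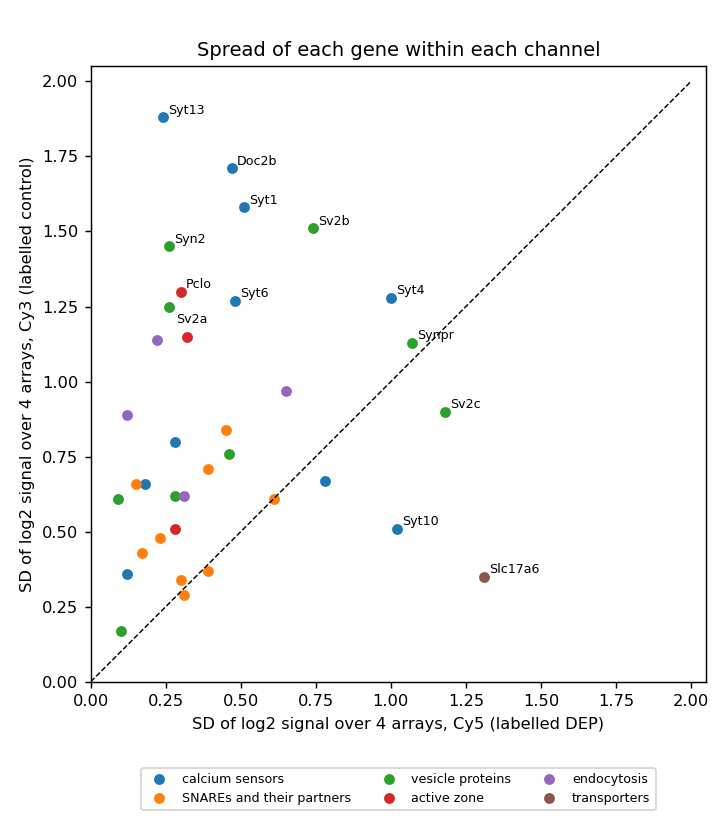
SD over 4 arrays of the log2 signal in Cy5, labelled DEP (x axis), and in Cy3, labelled control (y axis), for the 36 fully measured release genes, coloured by role, with the dashed line marking equal spread. In all, 30 points lie above the line, with medians of 0.73 in Cy3 and 0.31 in Cy5, and Slc17a6, Sv2c and Syt10 lie well below it.

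The release genes differed in their signal on array 3. In Cy3, 7 of 36 genes (19.4%) had their highest signal there, a share below the 24.6% of all fully measured genes, namely Syt1, Syt9, Stx1a, Syn2, Sv2c, Cplx2 and Doc2b. In Cy5, 17 of 36 (47.2%) were highest on array 3, a share above the 18.6% of all fully measured genes. Some genes were low there in Cy3, such as Syt13 with Cy3 signals of 3450, 3044, 453 and 268, Syt6 with 2675, 2445, 601 and 525, and Sh3gl2 with 1413, 1435, 423 and 317. These examples were picked after their values were seen. Across the 36 genes, which share extracts and are not independent, Pearson's r of the ratios was 0.80 for arrays 1 and 2 and 0.55 for arrays 2 and 3. Array 4 had an r of -0.35 with array 1, -0.10 with array 2 and 0.30 with array 3, and arrays 1 and 3 had 0.35. Over all probes the r was 0.61 for arrays 1 and 2, 0.38 for arrays 1 and 3, 0.37 for arrays 2 and 3, and -0.22, 0.14 and 0.29 for array 4 with arrays 1, 2 and 3.

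Markers of other cells were read in the same extracts. Of the 14 neuron genes outside the release machinery 13 were fully measured, all 13 had a mean below 0, and their median ratios on arrays 1 to 4 were -2.37, -1.49, -0.87 and 0.36, close to those of the release genes. The summed signal, here and for the lists that follow taken over every tested gene of a list, was 34804 to 84222 in Cy3 and 15462 to 52803 in Cy5, so none of the extracts lacked them. The range of this sum was wider in Cy5, as a fold, but the neurofilament genes weigh on it and single genes differed. In Cy5 Nefl read 1300 to 13000 and Nefh 3030 to 12700, the brightest of the list on array 4. Rbfox3 and Elavl3 varied more in Cy3, at 734 to 5230 and 336 to 2010, against 842 to 1470 and 275 to 376 in Cy5. Neither the part of neuron content nor that of any other cell type in these ratios was tested.

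Cerebellar markers had the order of Syt13 and Slc32a1 over the arrays. Of 12 genes 6 were fully measured, all 6 lower, with medians of -3.24, -3.36, -0.33 and 0.23, and the summed Cy3 signal of the 11 tested was 75624 and 74180 on arrays 1 and 2 but 9548 and 5326 on arrays 3 and 4. In Cy5 the sum was 9910, 8444, 7721 and 5910, and its genes differed. Itpr1 read 3770, 3740, 4540 and 3860 and Zic1 1020, 1110, 1370 and 1370 in Cy5, whereas Pcp2, a Purkinje cell gene, read 4080, 2690, 941 and 213. Calb1 had no probe, and Cbln3 and Car8 were not above background in Cy5 on any array. Forebrain markers, with 6 of 9 fully measured and Neurod6 and Tbr1 not above background in Cy5 and Emx1 not in Cy3, had medians between -0.50 and -0.08, and their sum was 4676 to 5258 in Cy3 and 2658 to 3877 in Cy5.

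Astrocyte markers (6 of 6) had medians of -2.45, -1.66, -0.32 and 0.20 and summed to 173319, 157238, 53761 and 42587 in Cy3, and to between 37656 and 52388 in Cy5. Central myelin markers (5 of 6, with no probe for Opalin) had -1.20, -0.33, -0.26 and 0.21, with sums from 10974 to 54788 in Cy3 and from 9410 to 13479 in Cy5. In both lists the sum in Cy3 was highest on array 1 and lowest on array 4, as for most release genes.

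Endocrine and chromaffin markers (5 of 7 fully measured) had medians of -2.80, -2.10, -1.33 and 0.34. Their summed Cy3 signal was 75295 on array 3, against 33920, 24831 and 5310 on arrays 1, 2 and 4, and in Cy5 it lay between 4900 and 11893. Th, the rate-limiting enzyme of catecholamine synthesis, read 25300 in Cy3 on array 3 and between 566 and 1150 on the other arrays. Dbh, which makes noradrenaline, was detected on array 3 alone, at 32900 in Cy3 and 3380 in Cy5. The array 3 sum rested mostly on Th and Dbh, since Chga, Chgb, Scg2 and Scg3 had higher Cy3 signals on array 1 than on array 3, for instance 18700 against 7880 for Chgb. Slc18a2, the vesicular transporter for monoamines, had ratios of -0.43, 0.35, -3.61 and 0.20.

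The labelled tissue was checked against ear markers. All 6 middle ear epithelium genes were measured in both dyes on all arrays, with medians of 0.78, 0.47, -0.14 and -0.62 and sums from 98732 to 240926 in Cy3 and from 141149 to 170662 in Cy5. The mucin Muc5b differed from the list's medians, with ratios of -1.09, -0.49, -2.51 and -1.55 (mean -1.41 ± 0.85, SD, n = 4), and it gave most of the Cy3 range, at 3870, 24800, 115000 and 102000. Hair cell markers (4 of 10 fully measured) had medians between -0.19 and 0.42 and sums of 2078 to 3189 in Cy3 and 1916 to 3359 in Cy5, with Strc not above background in either dye, Chrna9 not in Cy3, and no probe for Atoh1 and Slc26a5. Peripheral neuron and Schwann cell markers (8 of 10) had -0.66, -0.11, -0.29 and 0.33, with sums of 11586 to 27087 in Cy3 and 7026 to 17392 in Cy5. Skeletal muscle markers (5 of 5) had -0.64, -0.54, 0.76 and 0.79, with sums of 174329 to 435495 in Cy3 and 181055 to 322809 in Cy5.

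**Figure D4:**
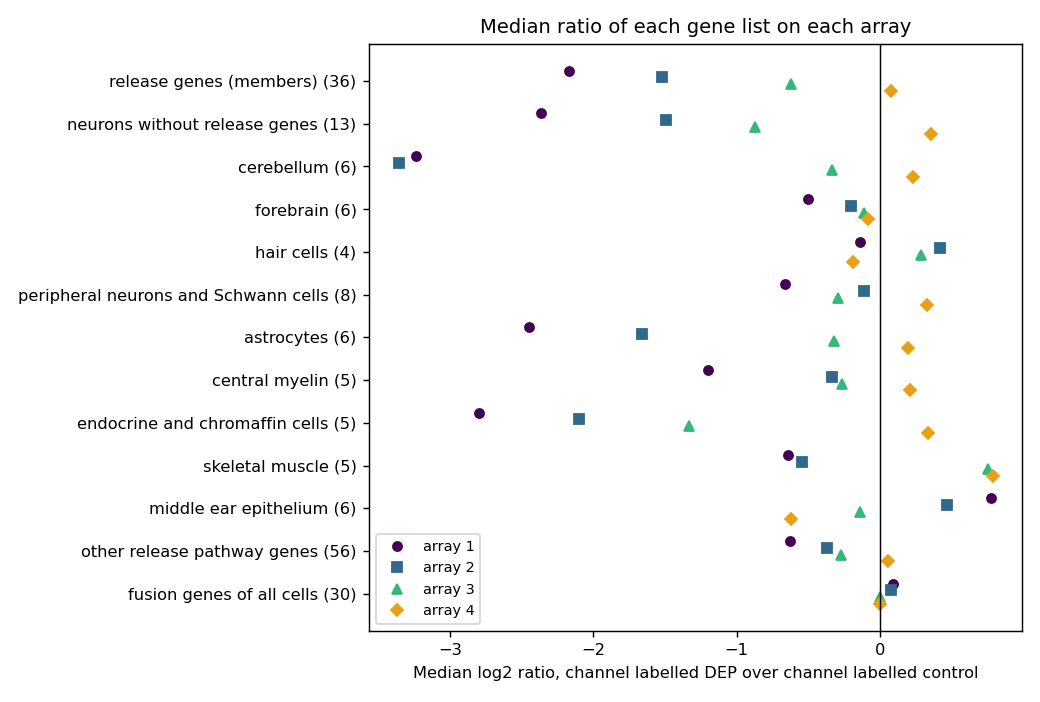
Median log2 ratio of Cy5 (labelled DEP) over Cy3 (labelled control) on the x axis for the release genes and for each other gene list (y axis, with the number of fully measured genes), with 1 marker for each of the 4 arrays. Release genes, other neuron genes, cerebellar, astrocyte and endocrine markers span from -2.17 or lower on array 1 to just above 0 on array 4, and the fusion genes of all cells stay between 0.00 and 0.09.

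Other genes of the release pathway had ratios closer to 0. Of 68 listed, 65 were tested and 56 fully measured, of which 43 had a mean below 0, 12 were past 2-fold lower, 0 were past 2-fold higher and 0 had an adjusted p under 0.05 in limma, and their median was -0.40. The presynaptic adhesion gene Nrxn3 (-2.03) and the GABA-synthesising enzyme Gad1 (-1.76) were among the lowest. Gad1 read 3020, 2750, 152 and 43.6 in Cy3, the same order as Slc32a1. For the hair cell ribbon synapse, its calcium sensor Otof had a mean of 0.20 ± 0.18 (SD, n = 4). Its glutamate transporter Slc17a8 had a mean of 0.09 ± 0.60 (SD, n = 4). These genes were singled out and do not stand for that synapse as a whole. Of the dynamins, Dnm2 of most cells had a mean of 0.11 and the neuronal Dnm3 one of -1.34. The adaptor subunit Ap2b1 was lower on all 4 arrays, at -0.65 ± 0.10 (SD, n = 4), while Ap2a1 had a mean of 0.03.

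The fusion genes that most cells use served as a counterpart. Of 32 listed, 30 were fully measured, 13 with a mean below 0 and 17 with a mean of 0 or above, none (0) past 2-fold, and their median was 0.08, which became 0.36 with normexp and median centring, a setting in which the median of all genes went from 0.03 to 0.11. Snap23, the counterpart of Snap25 outside neurons, had a mean of -0.03 ± 0.24 (SD, n = 4), against -0.67 for Snap25. Vamp8 and Snap29, which serve secretory granules and other membranes, had 0.45 and 0.49, and Napa, the common counterpart of Napb, had -0.27 ± 0.06 (SD, n = 4). Snap25 and Napb thus had lower means than these counterparts, and the differences were not tested.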

How the data were processed

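RNA from mouse ears was measured on 4 Agilent arrays of 1 slide that carry 2 dyes. Probe signals were quantified by the authors with Feature Extraction 10.10.1.1, which subtracts background and corrects for dye, and the deposited files hold signal intensities and a log10 ratio of Cy5 over Cy3 for each spot. The deposited log10 ratios were converted to log2 here. Control spots, flagged spots (164 to 274 per array) and spots without a ratio (6179 to 8558 of 43020) were left out, and a probe needed at least 3 ratios, so that 31577 of 39429 probes were tested. Symbols came from the RefSeq table of assembly GRCm38.p6 (for 27655 probes), and a gene was read by its brightest probe. The 47 genes with a probe were read by 66 probes.

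An intercept was fitted in limma 3.58.1 under R 4.3.3 (lmFit, eBayes, prior degrees of freedom 1.98), as a two-sided test whose p-values were adjusted by Benjamini-Hochberg across the 31577 probes. Channel levels are those after Aquantile normalization between arrays. The summed signals of the marker lists add the levels of different probes, so bright probes weigh most in them. Apart from these sums and the choice of the brightest probe, no level of a probe is set against that of another. Counts and medians were computed in Python 3.11.15 with pandas 2.3.3 and numpy 2.4.6, and figures were drawn with matplotlib 3.10.9. All genes of the list are named. Ratios are given for those well above background in both dyes throughout, the others are named with no fold, and further probes are given where their mean has another sign or lies more than 1 away, likewise with no fold unless well above background throughout. Members, marker lists and tests were chosen with earlier results of these data known. The marker and pathway lists are those for neurons, cerebellum, forebrain, hair cells, peripheral neurons and Schwann cells, astrocytes, central myelin, endocrine cells, skeletal muscle, middle ear epithelium, other release genes and fusion genes of all cells.

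Alternatives were normexp (offset 50) on the median spot signals with loess or median centring, the deposited ratio table, stricter filters on dim probes, flagged spots kept, the mean over probes, an intensity trend, ordinary least squares, 2-fold on every array, and each array left out. The number of arrays limits the precision. Protein sequences were not used here.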

Additional observations from a re-analysis of the deposited data

Results flagged for a closer look

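A value was picked out where it stood apart from the other 3 arrays by more than Dixon's limit for 4 values. Chance picks out about 1 in 20 such groups. Among the ratios of the 46 release genes with a ratio on every array, 2 stood apart, and among the signals of the 36 fully measured genes in either dye, 8 of 72 did. Array 4 stood apart in the ratio of Syt9, at -0.01 where the other arrays lay between -1.25 and -1.18, and in that of Syn2, at 0.27 where the others lay between -2.71 and -2.43.

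In Cy3, labelled control, array 4 was the low one for 4 genes. The log2 signal was 7.29 for Syt4, 10.08 for Syn1, 9.31 for Syn2 and 5.88 for Doc2b. Sv2c was the other gene picked out in Cy3, with a high value of 9.80 on array 3.

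In Cy5, labelled DEP, 3 genes were picked out. Stx1a read 6.93 on array 3 against at most 6.17 on the others, Slc17a6 read 6.25 on array 1 against at least 8.64, and Syt3 read 7.97 on array 1 against at least 8.19. What set these arrays apart was not tested.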

How the results depend on the processing

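The median of the 36 fully measured release genes stayed below 0 in each setting tried, between -1.48 without array 4 and -0.36 on arrays 3 and 4 alone. The number past 2-fold lower, 27, was 9 with normexp and median centring (19 where loess took the place of centring), 0 with 2-fold on every array by brightest probes, 6 on arrays 3 and 4 alone (chosen after seeing the data), and 10 to 32 with each array left out. The number lower on every array, 17, was 37 without array 4 and 17 without any other single array. The share of all genes is not given for these changed settings, so the counts describe the release genes only. The number with an adjusted p under 0.05 in limma, 0, became 3 with normexp and median centring. The median of the fusion genes of all cells, 0.08, became 0.36 with that setting and 0.01 to 0.08 with an array left out. The number of genes with a wider spread in Cy3, 30, was 19 to 34 with an array left out, also chosen after seeing the data. The cause of these shifts was not tested. With normexp and median centring, 5 of the 47 single means moved by more than the gene's SD over arrays. They were Snap25 (-0.67 to -0.16), Cplx2 (-0.92 to -0.33), Sypl (0.40 to 0.74) and the partly measured Rims1 and Rims2. Single means changed sign with normexp and median centring for Cplx3 (-0.01) and the partly measured Rims3, without array 1 for Syt10 (-0.12), Unc13b (-0.09) and Slc17a6 (0.36), and without array 2 for Syt10 (-0.06). Each ratio already compares the 2 extracts of an array. Beyond that, no paired analysis was possible because the labels give 1 group of arrays. Probes not above background in a dye limit what can be said of 11 of the 47 genes.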
